A study of Homo sapiens with 10 samples.

Results

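The transcripts of the mitochondrial genome were taken as all genes whose symbol begins with MT-, which is 37 of the 60554 genes in the quantified transcriptome. They comprise 13 mRNAs, 2 rRNAs and 22 tRNAs. They were measured in Caco-2 cells, a human colon carcinoma line, with Lexogen QuantSeq libraries, which prime cDNA synthesis on poly(A) and read near the 3′ end of a transcript. All 10 libraries came from Caco-2 cells that carry dCas9 fused to the KRAB repressor, from a clone kept under puromycin and then infected with a second lentivirus bearing a hygromycin marker. In 3 libraries that virus carried guide g1 and in 2 libraries guide g2, both designed against the long non-coding RNA LHFPL3-AS2, while the 5 gCtl libraries came from cells given the guide plasmid with no guide. The parental line is 1 clone, and no label says whether libraries of a group came from separate cultures, so the p-values measure the spread between these libraries, which may be technical. Libraries held 3838803 to 8730468 estimated counts.

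LHFPL3-AS2 itself was barely covered. As reads scaled to the library total (RPM), it was at 1.73, 0.840, 3.73, 1.73 and 3.12 with gCtl, at 3.07, 3.95 and 2.03 with g1, and at 2.16 and 6.01 with g2. The groups overlapped, and the level was not lower in the libraries labelled as knockdown (log2 fold change 0.63 ± 0.44 (SE), 95% interval -0.30 to 1.56, edgeR quasi-likelihood test, Benjamini-Hochberg adjusted p = 0.321). The paper reports depletion of LHFPL3-AS2 by qPCR with both guides, relative to gCtl. That assay is not part of these data, so the groups are called by their labels throughout. The 8 intestinal epithelium markers checked, such as EPCAM and VIL1, summed to 1579 to 1991 RPM in gCtl, 1517 to 1806 RPM in g1 and 1492 to 1526 RPM in g2, and of the 6 tested none was called with the guides pooled or with g1 (a gene was called if its adjusted p was no higher than 0.05 and it changed by 1.5-fold or more). With g2, the keratin gene KRT18 was called lower, from 490 CPM (TMM-scaled counts per library size, as set out below) in gCtl to 284 CPM (log2 fold change -0.78 ± 0.28, adjusted p = 0.0494 by edgeR), where 13.0% of all genes were called lower. The 13 markers of fibroblasts, endothelium and leukocytes summed to 22.6 to 36.0, 27.5 to 45.0 and 28.9 to 33.8 RPM in the same order, and 4 of the 13 exceeded 3 RPM in any library, beside 7 of the 8 epithelial markers. Of the 4 tested, the monocyte receptor gene CD14 was called lower with the guides pooled, from 3.14 CPM in gCtl to 0.992 CPM (adjusted p = 0.011 by edgeR), and with g2 (0.504 CPM, adjusted p = 0.00531), but not with g1 (1.32 CPM, adjusted p = 0.0521). With g1 the endothelial gene PECAM1 was called higher instead, from 2.86 to 7.06 CPM (1.29 ± 0.37, adjusted p = 0.0214 by edgeR), as were 6.81% of all genes. The part of these markers in the results was not tested.

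The human mitochondrial genome is a small circle that encodes core subunits of respiratory complexes I, III, IV and V and the rRNAs and tRNAs of the mitochondrial ribosome. Both strands are transcribed into long precursor RNAs by POLRMT, the mitochondrial RNA polymerase, and the tRNAs that lie between the genes are cut out to release the mRNAs and rRNAs. Most of the mRNAs then receive a short poly(A) tail, which in several of them supplies the missing bases of the stop codon. The half-lives of the mRNAs differ from gene to gene. Colon epithelium relies strongly on oxidative phosphorylation, so these RNAs are abundant in it.

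The 3′ end is where the assay reads, and the ends of the mitochondrial mRNAs are unusual. By their annotated ends on GRCh38, 6 of the 13 mRNAs end in an incomplete codon that poly(A) completes to a stop, and 7 end in a whole codon. MT-ATP6 is counted among the 7, but the last base of its stop codon (chrM:9207) is also the first base of MT-CO3. Its class is therefore uncertain. The last 20 bases of the 6 with an incomplete codon follow, with the bases of the unfinished codon in capitals.
MT-ND1: agcattccccctcaaaccTA
MT-ND2: ttttatactaataatcttaT
MT-CO3: catctattgatgagggtctT
MT-ND3: aggattagactgaaccgaaT
MT-ND4: cattaccgggttttcctctT
MT-CYB: caaaatactcaaatgggccT
Several genes also share sequence, which limits how reads can be assigned. MT-ATP8 and MT-ATP6, which are carried on one RNA, overlap by 46 bases (chrM:8527-8572, + strand), printed here with the MT-ATP6 start codon in capitals.
MT-ATP8 and MT-ATP6: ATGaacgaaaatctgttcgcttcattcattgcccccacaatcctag
MT-ND4L and MT-ND4, likewise on one RNA, overlap by 7 bases. MT-ND6 is the sole mRNA on the - strand (chrM:14149-14673), where it faces RNA read from the other strand. The strand setting of the counting is not given in the sources used here, so reads of MT-ND6 and of RNA from the opposite strand cannot be told apart. Whether MT-ND6 RNA carries a poly(A) tail was not tested, so how its counts were primed is not known.

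Oligo(dT) can also prime on A-rich stretches inside a transcript, and the members hold such stretches about as often as other RNAs. Of all 20-base windows in the 15 members with counts, 1.17% hold at least 12 A, beside 1.16% in 206638 transcripts outside the mitochondrial genome. At least 1 such window is present in 12 of the 15 members and in 60.1% of those other transcripts. The A-richest windows of 4 members are shown, with runs of 3 or more A in capitals, because the most abundant member (MT-RNR2) and mRNAs that moved little (MT-ND5) or strongly (MT-ATP8, MT-CO3) all hold one.
MT-RNR2: AAAggttAAAAAAAgtAAAA
MT-ND5: acAAAAtgacatcAAAAAAA
MT-ATP8: atAAAAAtAAAAAAttataa
MT-CO3: agAAAAcaaccgAAAccAAA
The window of MT-RNR2 lies 760 bases and that of MT-ND5 911 bases from the annotated end of the gene. That of MT-ATP8 lies 64 bases from the annotated end. MT-ATP8 shares its RNA with MT-ATP6, which ends further on (chrM:9207), so those 64 bases do not reach the 3′ end of the RNA. The files give counts per transcript with no read positions, so the share of counts that comes from such windows was not tested.

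Mitochondrial genes took 18.3, 23.1, 23.97, 21.4 and 23.9% of all counts in the gCtl libraries, 19.0, 20.6 and 20.3% in g1, and 16.8 and 12.04% in g2. Most of this was rRNA. MT-RNR2, the large ribosomal RNA, alone held between 9.64 and 15.5% of a library. The 13 mRNAs together held 5.27, 9.56, 7.84, 7.39 and 8.16% in gCtl, 5.02, 5.13 and 3.10% in g1, and 2.58 and 1.503% in g2. The highest labelled knockdown library thus lay just under the lowest gCtl library, which was replicate 1 and had the lowest gCtl level for 11 of the 13 mRNAs. In bulk RNA, fewer cells of a type and less RNA per cell cannot be told apart. Group means were 7.65% ± 1.56 (SD, n = 5) in gCtl, 4.42% ± 1.14 (SD, n = 3) in g1 and 2.04% ± 0.764 (SD, n = 2) in g2. The ratio of rRNA to mRNA counts was 1.42 to 2.47 in gCtl, 2.78 to 5.55 in g1, and 5.49 and 7.01 in g2, with no overlap between gCtl and either guide.

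**Figure D1:**
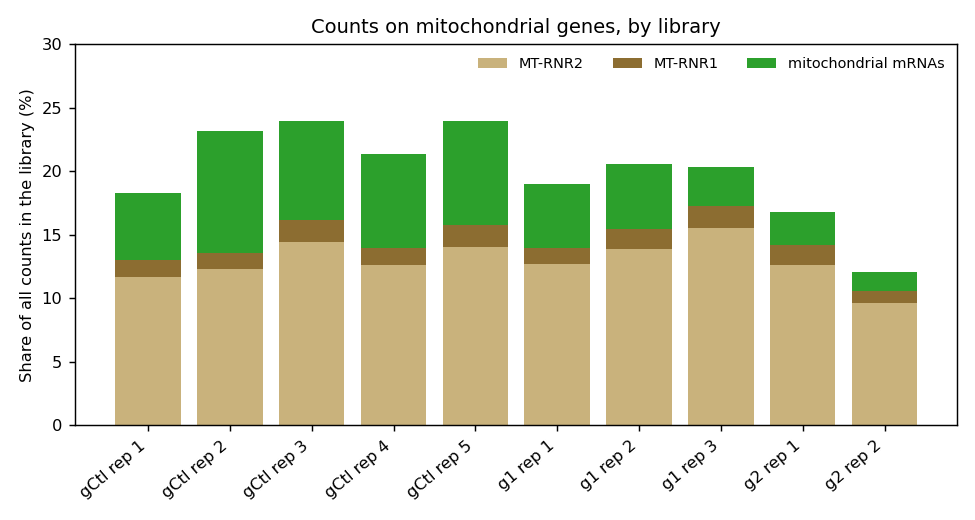
Stacked bars give the share of all counts (%) in each of the 10 libraries that fell on MT-RNR2, MT-RNR1 and the 13 mitochondrial mRNAs. The rRNA part stays between 10.5 and 17.2% in all libraries, and the mRNA part is smallest in the 2 g2 libraries (2.58 and 1.503%).

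The 22 tRNAs, of 59 to 75 bases, were listed at 0 in every library. This held for all 1592 genes with a single transcript of at most 75 bases, so the 0 is not read as a value for these tRNAs. Whether it arises in the library preparation or in the counting was not tested. For a transcript that the assay can count, a count of 0 allows up to 3 counts, which is 0.781 RPM in the shallowest and 0.344 RPM in the deepest library. This bound does not apply to the tRNAs. The other 15 members held between 682 and 1352390 counts in a library and all passed the filter on low values. Counting error is small at these depths, and the spread between libraries sets the precision.

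Levels are given below in CPM, the counts divided by the library size after scaling by the trimmed mean of M-values (TMM) over protein-coding genes. Divided by annotated gene length, the gCtl means of the mRNAs were lowest for MT-ND6 (1617 CPM per kb) and MT-ND3 (2106 CPM per kb). They were highest for MT-ND2 (18654 CPM per kb) and MT-ATP8 (29505 CPM per kb), the shortest of the 13 genes (207 bases). MT-RNR1 stood at 14936 and MT-RNR2 at 80969 CPM per kb. The assay yields about 1 fragment for each priming event, so length is only a rough scale for these levels.

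Comparison of the 5 labelled knockdown libraries with gCtl asked whether the mitochondrial mRNAs differ between gCtl and the guides pooled. The fit ran over 11640 protein-coding genes, with the call rule given above. Of the 13 mRNAs, 10 were called lower and none higher, against 11.0% of all genes called lower and 8.14% called higher. Their median log2 fold change was -1.19, beside 0.02 over all genes tested. In 6 of the 13 every labelled knockdown library lay below every gCtl library, which holds for 8.36% of all genes. With 1 library left out, 8 (without gCtl replicate 2) to 12 mRNAs were called lower.

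**Figure D2:**
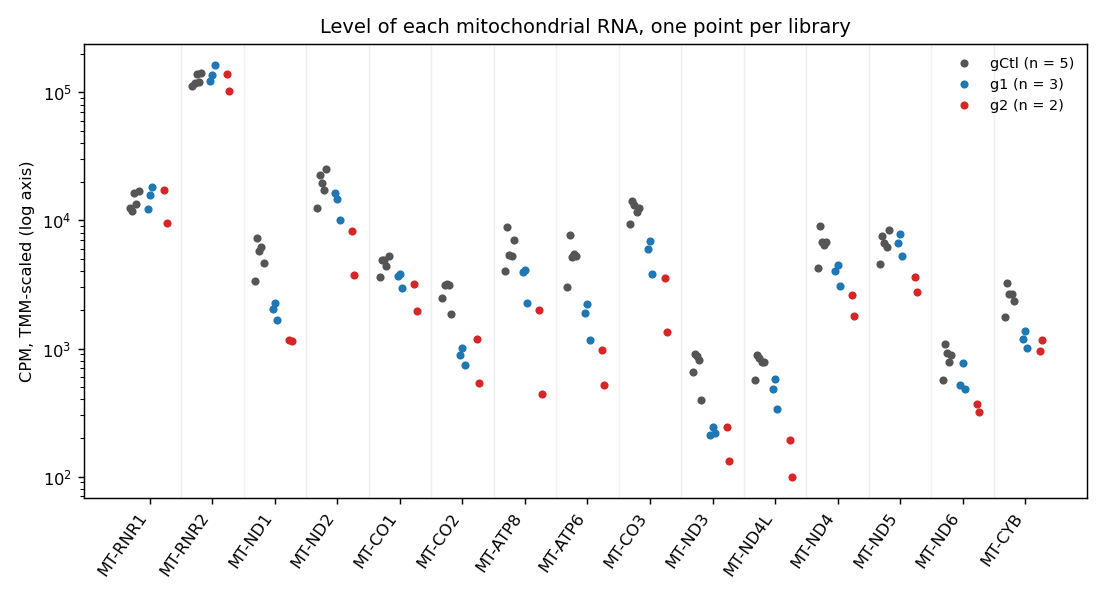
Points give the level of each mitochondrial rRNA and mRNA in each library, in TMM-scaled CPM on a log axis, in the order of the genes on the genome, with gCtl in grey, g1 in blue and g2 in red. The rRNA points of the groups overlap, whereas the g2 points of all 13 mRNAs lie below the gCtl points.

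Complex I, the NADH dehydrogenase that takes electrons from NADH, draws 7 subunits from this genome, and 5 of the 7 mRNAs were called lower. MT-ND3 was at 652, 906, 875, 812 and 398 CPM in gCtl, 210, 244 and 217 CPM in g1, and 244 and 131 CPM in g2. All labelled knockdown libraries were below gCtl, whose replicate 5 was nearest to them (log2 fold change -1.80 ± 0.22 (SE), adjusted p = 1.28e-04 by edgeR). MT-ND1, which forms part of the membrane arm at the quinone site, was at 3345, 7295, 5821, 6180 and 4659 CPM in gCtl, 2036, 2261 and 1662 CPM in g1, and 1173 and 1150 CPM in g2. Here too the groups were apart, and the 2 g2 libraries were nearly equal and the lowest (-1.72 ± 0.24, adjusted p = 2.43e-04).

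MT-ND4L and MT-ND4, proton-pumping membrane subunits translated from one RNA, fell by 1.19 ± 0.34 and by 1.05 ± 0.24 on the log2 scale (adjusted p = 0.0202 and 0.00652 by edgeR). MT-ND4L was at 565 to 887 CPM in gCtl, 484, 577 and 337 CPM in g1, and 192 and 99.1 CPM in g2, so that g1 replicate 2 reached into the gCtl range. MT-ND6, on the other strand, fell by 0.79 ± 0.22 (adjusted p = 0.0194), with gCtl at 567 to 1090 CPM and the labelled knockdown libraries at 319 to 767 CPM.

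The other two complex I mRNAs were not called. MT-ND2 had a log2 fold change of -0.86 ± 0.31 (adjusted p = 0.0557), with gCtl at 12452 to 25376 CPM, g1 at 16519, 14805 and 9992 CPM, and g2 at 8316 and 3761 CPM. MT-ND5 was at 4547, 7583, 6645, 6200 and 8349 CPM in gCtl, 6715, 7822 and 5291 CPM in g1, and 3632 and 2751 CPM in g2. The g1 libraries lay wholly within the gCtl range, and only the g2 libraries were below it (-0.35 ± 0.25, 95% interval -0.88 to 0.19, adjusted p = 0.336). MT-ND5 was called under none of the 23 alternatives.

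Complex IV, the cytochrome c oxidase, has its catalytic core in MT-CO1, MT-CO2 and MT-CO3. MT-CO2, which binds the copper centre that accepts electrons from cytochrome c, was at 2478, 3119, 3168, 3147 and 1859 CPM in gCtl, 888, 1001 and 742 CPM in g1, and 1185 and 533 CPM in g2. The groups did not overlap (-1.66 ± 0.21, adjusted p = 1.53e-04 by edgeR). MT-CO3 was also apart, at 9296 to 14257 CPM in gCtl, 5938, 6907 and 3824 CPM in g1, and 3567 and 1353 CPM in g2 (-1.50 ± 0.31, adjusted p = 0.00376 by edgeR). MT-CO1, the heme-bearing subunit, moved least of the 3. It was at 3585 to 5319 CPM in gCtl, 3692, 3799 and 2958 CPM in g1, and 3192 and 1973 CPM in g2, and its change of -0.57 ± 0.18 passed the p threshold (adjusted p = 0.0329 by edgeR) but not the fold minimum.

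Complex V, the ATP synthase, takes 2 subunits of its proton channel from this genome, and both mRNAs were called lower. MT-ATP6, through which protons cross, was at 3033, 7718, 5154, 5449 and 5261 CPM in gCtl, 1900, 2208 and 1163 CPM in g1, and 966 and 515 CPM in g2. This was the largest change of the 13 (-1.98 ± 0.33, adjusted p = 9.82e-04 by edgeR), and it was called under each of the 23 alternatives. MT-ATP8 was at 4052 to 8811 CPM in gCtl, 3990, 4114 and 2262 CPM in g1, and 1999 and 438 CPM in g2, with g1 replicate 2 just inside the gCtl range (-1.25 ± 0.41, adjusted p = 0.037 by edgeR). The MT-ATP8 call was lost in 6 of the 10 fits with 1 library left out. The 2 genes overlap by the 46 bases printed above, and their counts are therefore not fully separate.

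Complex III, the cytochrome bc1 complex, has 1 mitochondrial subunit. Its gene MT-CYB was at 1773, 3236, 2671, 2663 and 2367 CPM in gCtl, 1180, 1360 and 1010 CPM in g1, and 948 and 1175 CPM in g2. The groups were apart and the guides overlapped each other (-1.16 ± 0.17, adjusted p = 3.69e-04 by edgeR). By last codon as annotated, 5 of the 6 mRNAs that poly(A) completes and 5 of the 7 with a whole codon were called lower, with medians of -1.33 and -1.19. The 7 include MT-ATP6, whose class is uncertain because it shares its last base with MT-CO3.

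Each guide was then set against gCtl on its own, in a fit with 3 groups. Both comparisons share the 5 gCtl libraries, so they are not independent. With g1, 8 of the 13 mRNAs were called lower, beside 9.91% of all genes, with a median log2 fold change of -0.82. The largest were MT-ND3 (-1.70 ± 0.25), MT-CO2 (-1.65 ± 0.25), MT-ATP6 (-1.60 ± 0.29) and MT-ND1 (-1.46 ± 0.22). MT-ATP8, MT-ND6, MT-ND2, MT-CO1 and MT-ND5 were not called, and MT-ND5 stood at -0.01 with a 95% interval of -0.43 to 0.40. The g1 libraries lay wholly below gCtl for 6 mRNAs, as for 13.5% of all genes. Without g1 replicate 3, 5 mRNAs were called.

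With g2, all 13 mRNAs were called lower, beside 13.0% of all genes, with a median of -1.69 and all 13 wholly below gCtl, as for 19.8% of all genes. MT-ATP6 had the largest change, -2.85 ± 0.37, which is 7.19-fold lower (adjusted p = 9.68e-05 by edgeR), followed by MT-ND4L (-2.41 ± 0.29) and MT-ATP8 (-2.33 ± 0.47). MT-CO1 had the smallest (-0.84 ± 0.22, adjusted p = 0.0102 by edgeR). This group has 2 libraries, and replicate 2 was below replicate 1 for 12 of the 13 mRNAs. With replicate 2 left out, 11 mRNAs were called.

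**Figure D3:**
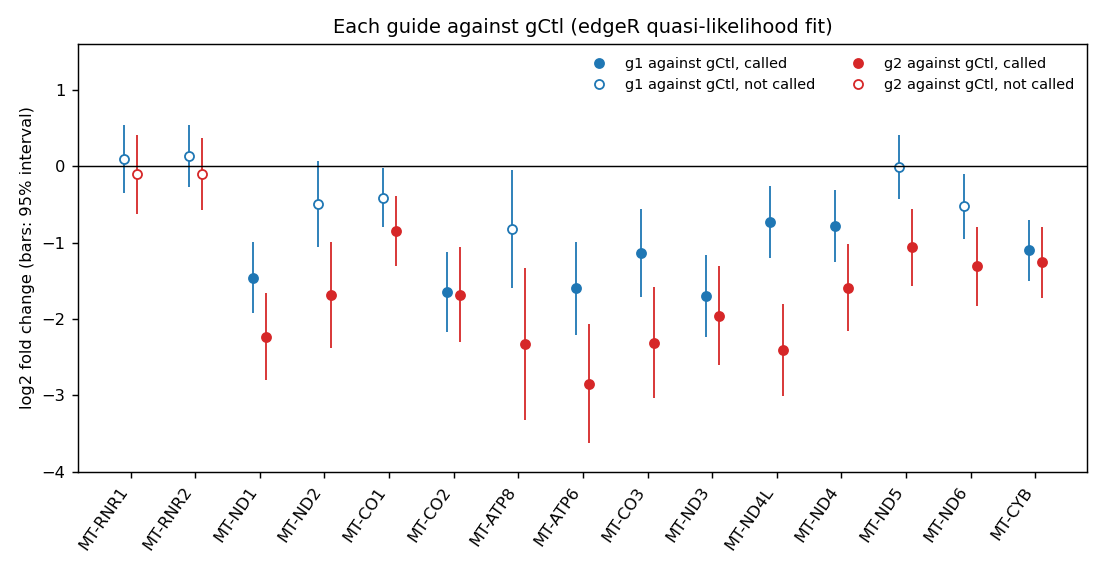
Points give the log2 fold change of each guide against gCtl with its 95% interval, with filled points for genes called and open points for genes not called. All 13 mRNAs are filled for g2 and 8 for g1, and the intervals of MT-RNR1 and MT-RNR2 include 0 for both guides.

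The difference between the guides was tested directly. All 13 mRNAs had a negative log2 fold change for g2 against g1, with a median of -0.81, but only 2 were called lower, beside 3.42% of all genes. MT-ND4L was 3.2-fold lower with g2 (-1.68 ± 0.29, adjusted p = 0.00363 by edgeR) and MT-ND5 2.07-fold lower (-1.05 ± 0.25, adjusted p = 0.0263). MT-ND4, which lies on one RNA with MT-ND4L, was not called (-0.81 ± 0.28, adjusted p = 0.104 by edgeR). MT-ATP6, MT-ND2 and MT-CO3 came close, with adjusted p of 0.0516, 0.0539 and 0.0552 by edgeR. MT-CO2 and MT-CYB stood at -0.03 (95% interval -0.64 to 0.58) and -0.16 (95% interval -0.64 to 0.32). In 9 of the 13 both g2 libraries were below all 3 g1 libraries, as for 17.3% of all genes. This count of calls was the least stable, at 8 with DESeq2, 9 with no filter, 6 without g2 replicate 1, 5 without gCtl replicate 1 or g1 replicate 3, and 1 without g1 replicate 1, g1 replicate 2 or g2 replicate 2.

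The rRNAs were tested over 14657 genes of all biotypes, and neither was called in any comparison, beside 17.5% of those genes called in either direction for the pooled guides, 13.9% for g1, 21.8% for g2 and 3.96% between the guides. MT-RNR1, of the small ribosomal subunit, was at 12502, 11950, 16518, 13418 and 16857 CPM in gCtl, 12362, 15832 and 18366 CPM in g1, and 17393 and 9634 CPM in g2. MT-RNR2 was at 112164, 118138, 139399, 121095 and 140355 CPM in gCtl, 121608, 135907 and 164681 CPM in g1, and 138478 and 102599 CPM in g2. The groups overlapped in both genes, and the 2 g2 libraries were far apart from each other. Against gCtl, the labelled knockdown libraries differed by 0.02 on the log2 scale for MT-RNR1 (95% interval -0.41 to 0.44) and by 0.04 for MT-RNR2 (95% interval -0.38 to 0.46). For g2 alone the intervals ran from -0.62 to 0.41 and from -0.57 to 0.37, so a change of up to about these sizes was not detectable.

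The mRNAs were also scaled to the rRNAs of the same genome, by setting each library's size to its MT-RNR1 and MT-RNR2 counts. This scaling was chosen after the data were seen. It placed the median log2 fold change of all genes at -0.02 for the pooled guides, -0.13 for g1 and 0.09 for g2, and at 0.25 for the direct comparison of the guides. On that scale 11 of the 13 mRNAs were called lower with the guides pooled (10.5% of all genes), 8 with g1 (10.6%) and 12 with g2 (7.99%). Between the guides 1 was called (0.756%), MT-ND4L.

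The make-up of the mRNA pool was described by the share of each gene among the counts on the 13 mRNAs. MT-ND5 took 8.99, 8.28, 8.76, 8.72 and 10.2% of the pool in gCtl, 13.96, 15.5 and 16.0% in g1, and 12.8 and 17.2% in g2. MT-CO1 took 5.40 to 7.09% in gCtl, 7.54 to 8.96% in g1, and 11.2 and 12.3% in g2. These were the 2 shares that lay above gCtl in every labelled knockdown library. The opposite was seen for MT-ATP6, at 5.999 to 8.42% in gCtl, 3.95, 4.38 and 3.52% in g1, and 3.40 and 3.22% in g2, and for MT-CO3, at 15.3 to 18.4% in gCtl, 12.3, 13.7 and 11.6% in g1, and 12.6 and 8.46% in g2.

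**Figure D4:**
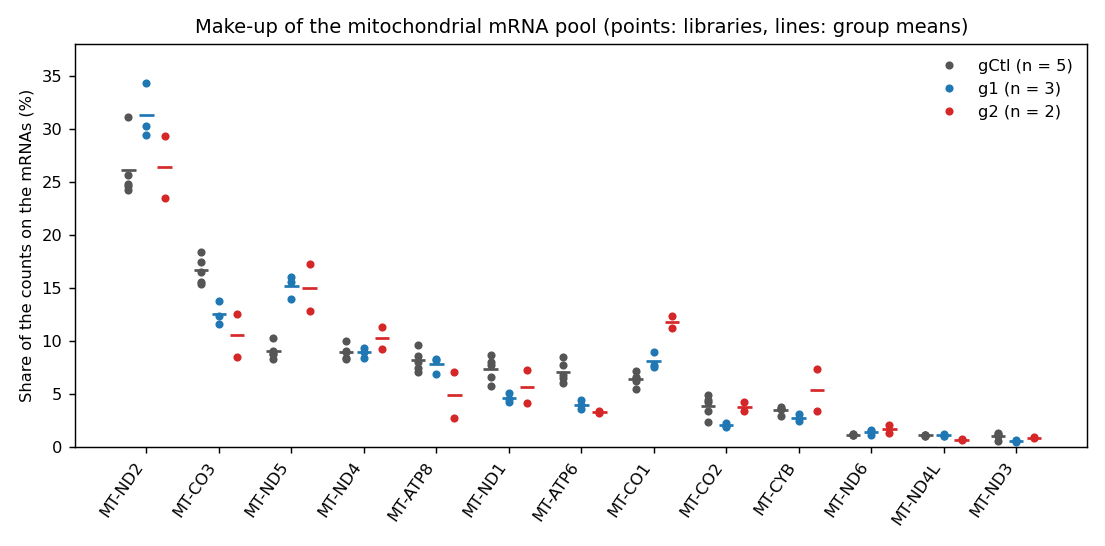
Points give the share (%) that each mRNA took of the counts on the 13 mitochondrial mRNAs in each library, with lines at the group means. MT-ND5 and MT-CO1 lie higher and MT-ATP6 and MT-CO3 lower in all 5 labelled knockdown libraries than in the 5 gCtl libraries.

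MT-ND2 took the largest share in every library, from 23.5 to 34.3%, with overlapping groups. Tested with the summed mRNA counts as library size, a scaling also chosen after the data were seen that moves the median of all genes by 1.27, MT-ATP6 fell further than the pool (-0.94 ± 0.31, adjusted p = 0.008 by edgeR) and MT-ND5 rose against it (0.75 ± 0.29, adjusted p = 0.020 by edgeR). The other 11 were not called. Here 0.490% of all genes were called lower and 73.0% higher, since the scale itself falls. With most genes called, adjusted p stay close to unadjusted p, so these calls do not decide whether either gene differs from the pool. No p was adjusted over the mRNAs alone. Under the same adjustment, the MT-ATP6 call was kept in all 10 fits with 1 library left out and the MT-ND5 call in 7.

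By complex, complex I mRNAs took 52.1 to 57.9% of the pool in gCtl, 61.5 to 63.8% in g1, and 58.3 and 62.6% in g2, with no overlap. Complex V mRNAs took 13.9 to 18.0% in gCtl, 10.4 to 12.5% in g1, and 10.4 and 5.95% in g2, also with no overlap. The shares of complex IV (24.2 to 30.4% in gCtl, 21.9 to 28.0% in the labelled knockdown libraries) and of MT-CYB (2.90 to 3.74% and 2.45 to 7.34%) overlapped. As shares of all counts rather than of the pool, complex IV mRNAs fell from a mean of 2.02% in gCtl to 0.999% in g1 and 0.543% in g2, and complex V mRNAs from 1.18% to 0.527% and 0.1796%. Across the 13 mRNAs, log2 fold change for both guides together ran with transcript length (Spearman rho 0.57, Pearson r 0.61, 13 genes), so that shorter mRNAs had the larger decrease. These genes share libraries and overlapping reads, and the correlation is a description only. The same rho with the number of A in the A-richest window was 0.15.

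Most subunits of these complexes are encoded in the nucleus, so the 84 nuclear subunit genes of complexes I to V were set beside the mitochondrial ones. Of the 78 tested, 35 were called lower and none higher with both guides together, against 11.0% of all genes called lower, and their median was -0.58. Each guide alone gave 31 called lower (g1, beside 9.91% of all genes) and 38 called lower (g2, beside 13.0% of all genes). This list was drawn up with earlier results of these data known.

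Complex I had 15 of 37 tested nuclear genes lower (median -0.56), led by NDUFA1, a membrane-arm subunit (93.2 CPM in gCtl to 24.8 CPM, -1.91 ± 0.24, adjusted p = 1.32e-04), and NDUFS3, a core subunit (73.8 to 23.99 CPM, -1.62 ± 0.17, adjusted p = 5.88e-05 by edgeR). Complex II, which has no mitochondrially encoded subunit, had 2 of 4 lower, SDHB, its iron-sulfur subunit (-1.47 ± 0.41), and SDHA, its flavoprotein (-0.65 ± 0.15). SDHB was not called with g2 alone (adjusted p = 0.132 by edgeR). SDHA was not called with g1 alone, where it missed the fold minimum (adjusted p = 0.0276 by edgeR). Complex III had 3 of 9 lower, led by the hinge protein gene UQCRH (-1.42 ± 0.30) and the cytochrome c1 gene CYC1 (-1.40 ± 0.18). Complex IV had 5 of 11 lower, led by COX8A (-1.88 ± 0.31) and COX6A1 (-1.27 ± 0.22), and complex V had 10 of 17 lower, led by ATP5O (-1.54 ± 0.22) and the catalytic beta subunit gene ATP5B (-1.46 ± 0.30). gCtl replicate 5 was the lowest gCtl library for all 10 of these genes, as it was for MT-ND3 and MT-CO2. With that library left out, 39 of the nuclear genes were called, and 26 without gCtl replicate 1. The share of all genes called in these fits is not given here, so the counts may shift with the number of calls in general.

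**Figure D5:**
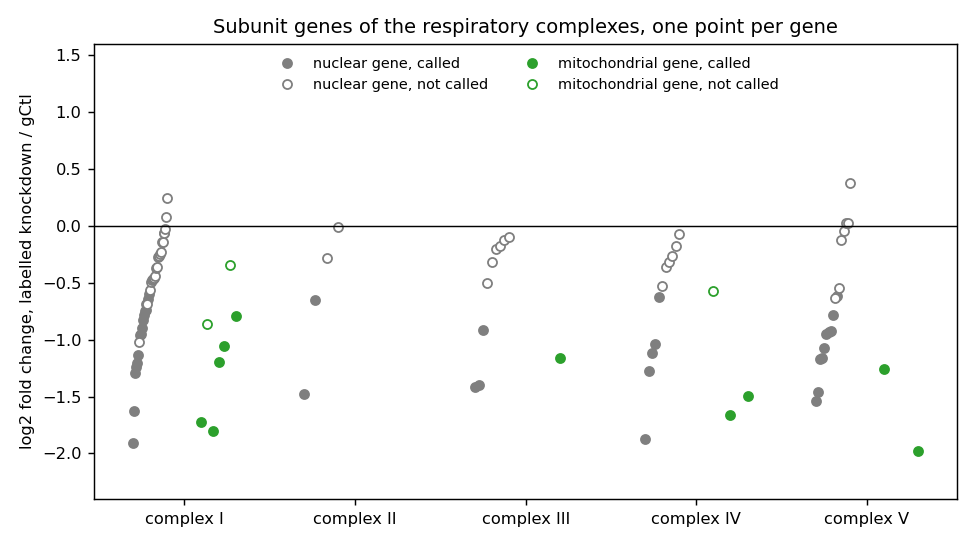
Points give the log2 fold change of the labelled knockdown libraries against gCtl for each tested subunit gene, by complex, in grey for nuclear and green for mitochondrial genes and filled where called. No nuclear or mitochondrial subunit gene was called higher, and complex II has no green point.

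Genes that make or handle the mitochondrial transcripts were examined in the same way. Of 16 tested genes for replication and transcription of the genome, 2 were called lower and none higher with both guides together, a share close to the 11.0% of all genes called lower. These were POLRMT (14.03 CPM in gCtl to 6.84 CPM, -1.03 ± 0.23, adjusted p = 0.00518 by edgeR) and the topoisomerase gene TOP1MT (-0.61 ± 0.17, adjusted p = 0.0202 by edgeR). TOP1MT was not called with g2 alone (adjusted p = 0.0658 by edgeR). TFAM, which packages the genome and is needed for transcription, was named after its values were seen. It was at 320 CPM in gCtl and 214 CPM in the labelled knockdown libraries, with no overlap, and missed the fold minimum (-0.58 ± 0.15, adjusted p = 0.0122 by edgeR).

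Of 35 genes for processing and stability of mitochondrial RNA, 8 were called lower and 1 higher, beside 11.0% and 8.14% of all genes, with a median of -0.18. The lower ones were led by ERAL1, a chaperone of the small-subunit rRNA (-1.43 ± 0.45), and TRMU, which modifies tRNA wobble bases (-1.12 ± 0.28). ERAL1 was called with neither guide alone (adjusted p = 0.0815 for g1 and 0.0794 for g2 by edgeR). Its level in gCtl replicate 5, 1.41 CPM, lay among those of the labelled knockdown libraries. TRMU was called with g2 but not with g1 (adjusted p = 0.0508 by edgeR). The one called higher, FASTKD1 (0.75 ± 0.21), was named after its value was seen. LRPPRC, which together with SLIRP stabilises the mRNAs, was named after its values were seen and was not called (191.7 and 176 CPM, -0.12 ± 0.12, adjusted p = 0.52 by edgeR). SLIRP, also named after its values were seen, passed the p threshold but missed the fold minimum (98.3 and 69.6 CPM, -0.49 ± 0.15, adjusted p = 0.0265 by edgeR). Of 76 genes for mitochondrial ribosomal proteins, 15 were called lower, led by MRPS24 (-2.07 ± 0.30) and MRPL18 (-1.89 ± 0.35), and 2 higher, beside the same 11.0% and 8.14% of all genes, with a median of -0.27. The higher ones, named after their values were seen, were MRPL35 (1.05 ± 0.17) and MRPL50 (0.73 ± 0.17).

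The nuclear genome holds copies of mitochondrial genes that compete for the same reads, and 2 of 310 such copies held at least 1% of the counts of the gene they copy. MTATP6P1 on chromosome 1 (chr1:633696-634376, + strand) shares 61.3% of its 31-base words with MT-ATP6 and held 6.06% of the counts of MT-ATP6. It was called lower in the same comparison, from 272 ± 50.9 CPM (SD, n = 5) in gCtl to 124 ± 42.8 CPM (SD, n = 5), a log2 fold change of -1.16 ± 0.21 (adjusted p = 0.00204 by edgeR). Relative to MT-ATP6 it stood at 4.30 to 6.29% in gCtl and 7.09 to 9.51% in g1, and at 8.61 and 22.1% in g2.

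MTRNR2L12 on chromosome 3 (chr3:96617188-96618236, - strand) shares 33.6% of its 31-base words with MT-RNR2 and held 1.18% of its counts. Its A-richest window is the same as that of MT-RNR2.
MTRNR2L12: AAAggttAAAAAAAgtAAAA
Unlike MT-RNR2, it was called higher. It was at 784, 765, 1044, 674 and 1200 CPM in gCtl, 1449, 1492 and 2317 CPM in g1, and 2735 and 2031 CPM in g2, with no overlap (1.17 ± 0.21, adjusted p = 0.00137 by edgeR). It equalled 0.556 to 0.855% of the MT-RNR2 counts in gCtl, 1.10 to 1.41% in g1, and 1.97 and 1.98% in g2. How Kallisto splits reads that fit both a copy and its source was not tested, and both copies are uncertain for that reason. Adding the copies to the genes they copy left the calls at 10 of 13 mRNAs for both guides together and 13 of 13 for g2.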

How the data were processed

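RNA of 10 Caco-2 libraries was sequenced single-end after QuantSeq 3′ preparation. The authors pseudo-aligned reads with Kallisto (given as version 42.5 in the submitters' processing notes) to GENCODE v24 transcripts on GRCh38 and deposited estimated counts per transcript, not normalized. The strand setting is not given in the sources used here. Estimated counts were summed per gene over 199169 transcripts and rounded. Library totals were 3838803 to 8730468 counts. Groups came from the labels, which give no replicate numbers. Replicates are numbered in accession order.

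Genes above 3 RPM in at least 20% of libraries were tested with edgeR 4.0.16 (TMM, quasi-likelihood, Benjamini-Hochberg) in R 4.3.3, mRNAs over protein-coding genes and rRNAs and LHFPL3-AS2 over all biotypes. CPM, intervals and SE follow from that fit. No p was adjusted over a list alone and no set test was run. Alternatives were DESeq2 1.42.0, limma 3.58.1 on log2(RPM + 1), other scalings and filters, and each library left out. Scripts were tested on simulated data. The members and gene lists were chosen with earlier results of these data known. All members with counts are named, and from each list the 2 called genes with the largest change. KRT18 and PECAM1, like the others so marked, were named after their values were seen. Sequences were read from GENCODE v29 transcripts on GRCh38, whose member identifiers and lengths equal those in the files.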

Additional observations from a re-analysis of the deposited data

Results flagged for a closer look

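Some results stood apart by fixed rules. MT-ND4L and MT-ND5 differed between the guides in a direct test of g2 against g1, with log2 fold changes of -1.68 and -1.05. MT-ND4, on one RNA with MT-ND4L, stood at -0.81 and was not called (adjusted p = 0.104 by edgeR). The MT-ND4L call was kept in all 10 fits with 1 library left out and the MT-ND5 call in 7.

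Within gCtl, the share of the mRNA pool of MT-ND2 was 31.1% in replicate 5, while the other 4 libraries were at 24.3 to 25.6%. The share of MT-CYB was 2.90% in the same library, below the others at 3.51 to 3.74%. Both gaps exceeded the critical ratio of 0.71 for 5 libraries. In all, 31 sets of 5 values were examined and 2 were marked, where chance marks about 1 in 20.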

How the results depend on the processing

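Apart from the scaling to the mRNA sum, the direction of all 13 mRNAs against gCtl held for g2 and for both guides together under every alternative. For g1 it held with the exception of MT-ND5. Relative to the mRNA sum, 7 of the 13 were below 0 for both guides together. Against a fold change of 1.5, the test called 6 mRNAs lower for both guides together, 5 for g1 and 1 for g2 against g1, and 12 nuclear subunit genes in place of 35. For g2 against g1 the count of 2 became 8 with DESeq2, 9 with no filter, 5 with library totals alone, 5 with limma and 1 when scaled to the rRNAs. With each library left out it ran from 1 to 6, for g1 from 5 to 9, for both guides together from 8 to 12, relative to the mRNA sum from 1 (without gCtl replicate 2, 3 or 4) to 4 (without g2 replicate 2), and for nuclear subunits from 26 to 40. Apart from the scalings to the rRNAs and to the mRNA sum with all libraries, the share of all genes called under these alternatives is not given. A change in a count may therefore follow from more or fewer calls among all genes. Calls relative to the mRNA sum carry the limit given with that scaling. The share of counts on mitochondrial genes was 7.65, 4.42 and 2.04% in gCtl, g1 and g2 for mRNAs alone.

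Values near 0 changed sign. For both guides together, MT-RNR2 and MT-RNR1 were at -0.018 and -0.045 with library totals and at -0.031 and -0.069 with limma, and with libraries left out they ran from -0.047 to 0.13 and from -0.072 to 0.15. MT-RNR1 ran from -0.041 to 0.23 for g1, from -0.64 to 0.28 for g2 and from -0.72 to 0.19 for g2 against g1, and MT-RNR2 from -0.38 to 0.13 for g2. MT-ND5 ran from -0.15 to 0.11 for g1. For g2 against g1, MT-CO2 ran from -0.71 to 0.45 and MT-ND3 from -0.76 to 0.15, and scaled to the rRNAs MT-CO2 was at 0.10 and MT-CYB at 0.093. MT-CYB relative to the mRNA sum ran from -0.25 to 0.26. The causes were not tested.

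No paired analysis was possible because the labels give no replicate numbers. With 1 g2 library left out, the lone library is assumed to vary like the other groups. Genes as short as the tRNAs are listed at 0 at every depth here.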
